A study of Homo sapiens with 4 samples.

Results

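The genes described here are MYC and 53 genes whose proteins make ribosomes in the nucleolus, 54 of the 29387 genes listed in all 4 libraries. They were taken by symbol and belong to 5 role groups: polymerase I transcription, small nucleolar ribonucleoproteins (snoRNPs), assembly of the small subunit, assembly of the large subunit, and nucleolar proteins with several functions. The set was chosen because its counts were lower in invasive than in control populations, so differences between these populations in its members are description, with no test. U87MG is an established line from a human malignant glioma. Parental cells were placed on organotypic brain slices for 1 week in a neural stem cell medium to which FGF and EGF were added, and both kinds of population came from such slices. The invasive populations, called clones and independently derived in the labels, and the poorly invasive controls were each isolated and then grown in culture for 3 to 5 days. Each of the 2 invasive and 2 control populations gave 1 stranded library of polyadenylated RNA, and invasive 1 is paired with control 1 and invasive 2 with control 2. From which species the slices were cut is not stated.

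The nucleolus is where RNA polymerase I copies the ribosomal DNA into one long precursor. Box C/D and box H/ACA snoRNPs modify that precursor, the small-subunit processome folds and cuts its early part, and a separate set of factors builds the large subunit around the rest. MYC is a transcription factor that, with its partner MAX, binds the E-box CACGTG and is known to activate many of the genes for this pathway.

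The libraries held 15466900 and 13829871 counts in invasive 1 and 2, and 17817756 and 15444104 counts in control 1 and 2. Levels are given as CPM, counts per 1000000 counts of the library. Of the markers used to check the line, VIM, CD44, EGFR and NES were detected in all libraries, OLIG2 lay between 0.582 and 1.74 CPM, and SOX2, GFAP and S100B had at most 4 counts in any library. The neuronal, astrocyte, oligodendrocyte, microglial and endothelial lists each summed to at most 63.2 CPM in any library, and AQP4, GJB6, MOG and P2RY12 were at 0 in all 4. Other genes of those lists were detected, among them SNAP25 (26.3 to 40.3 CPM), SLC1A3 (21.5 to 38.4), GAD1 (13.7 to 20.8) and CSF1R (10.1 to 21.3). The microglial marker TMEM119 had 14.3 and 7.16 CPM in the invasive libraries, against 2.19 and 3.11 CPM in the controls. CSF1R, of the same list, went the other way in both pairs, with 18.1 and 10.1 CPM against 21.3 and 10.8 CPM. CX3CR1 and PTPRC, also of that list, had at most 2 counts in any library. AIF1, C1QA and C1QB were not among the genes listed in all 4 libraries. In bulk RNA, fewer cells expressing a gene and less RNA per cell cannot be told apart. The p-values from fits with the pair measure how far the 2 pairs disagree, with information on the spread shared across genes. Nothing in the labels says that the populations of a group came from separate starting cultures, so that disagreement may be technical.

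Most of the 54 genes were lower in both invasive populations, by about the same modest amount. Of 53 that had enough counts to be fitted, 48 were lower in the invasive library of both pairs, 2 were higher in both (UBTF and NOC4L) and 3 had opposite signs. Of all 14231 genes fitted, 31.9% were lower and 33.4% higher in both pairs, and nothing is read from the set's share, because the genes were chosen on the same contrast. The median fitted log2 fold change, invasive over control, was −0.31 for the 53 genes and 0.01 for all genes. The range ran from −0.83 for LYAR to 0.11 for UBTF, with 38 genes between −0.5 and −0.2, 4 below −0.5 and 11 above −0.2.

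Summed over the 54 genes, the level was 6043 and 5721 CPM in invasive 1 and 2, against 7543 and 7335 CPM in control 1 and 2. The abundant NCL and NPM1 did not carry this alone: without them the sums were 4336 and 4098 CPM in the invasive libraries and 5264 and 5140 CPM in the controls. Both invasive libraries lay below both controls for 45 of the 53 genes and above both for NOC4L, where 19.7% and 23.7% of all fitted genes did so. No gene of the set passed an adjusted p of 0.05 in edgeR's quasi-likelihood test, a threshold that 0.274% of all genes passed in either direction (0.0351% lower, 0.239% higher). At an unadjusted p under 0.05 that test had 35 of the 53 genes lower and 0 higher, against 8.41% of all genes lower and 9.82% higher. DESeq2 called LYAR and DDX21 lower, and none higher, against 0.236% lower and 1.15% higher of the 12299 genes to which it gave an adjusted p. These counts describe genes chosen on this contrast and support nothing further.

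Libraries of the same group differed less from each other in these genes than invasive from control. The median size of the log2 difference, whatever its sign, was 0.31 in pair 1 and 0.29 in pair 2. It was 0.09 between the 2 invasive libraries and 0.12 between the 2 controls. For 40 of the 53 genes both differences between invasive and control were larger in size than both differences within a group, as they were for 19.7% of all genes. Choosing genes on this contrast favours such sizes, so nothing is read from them or from this count.

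**Figure D1:**
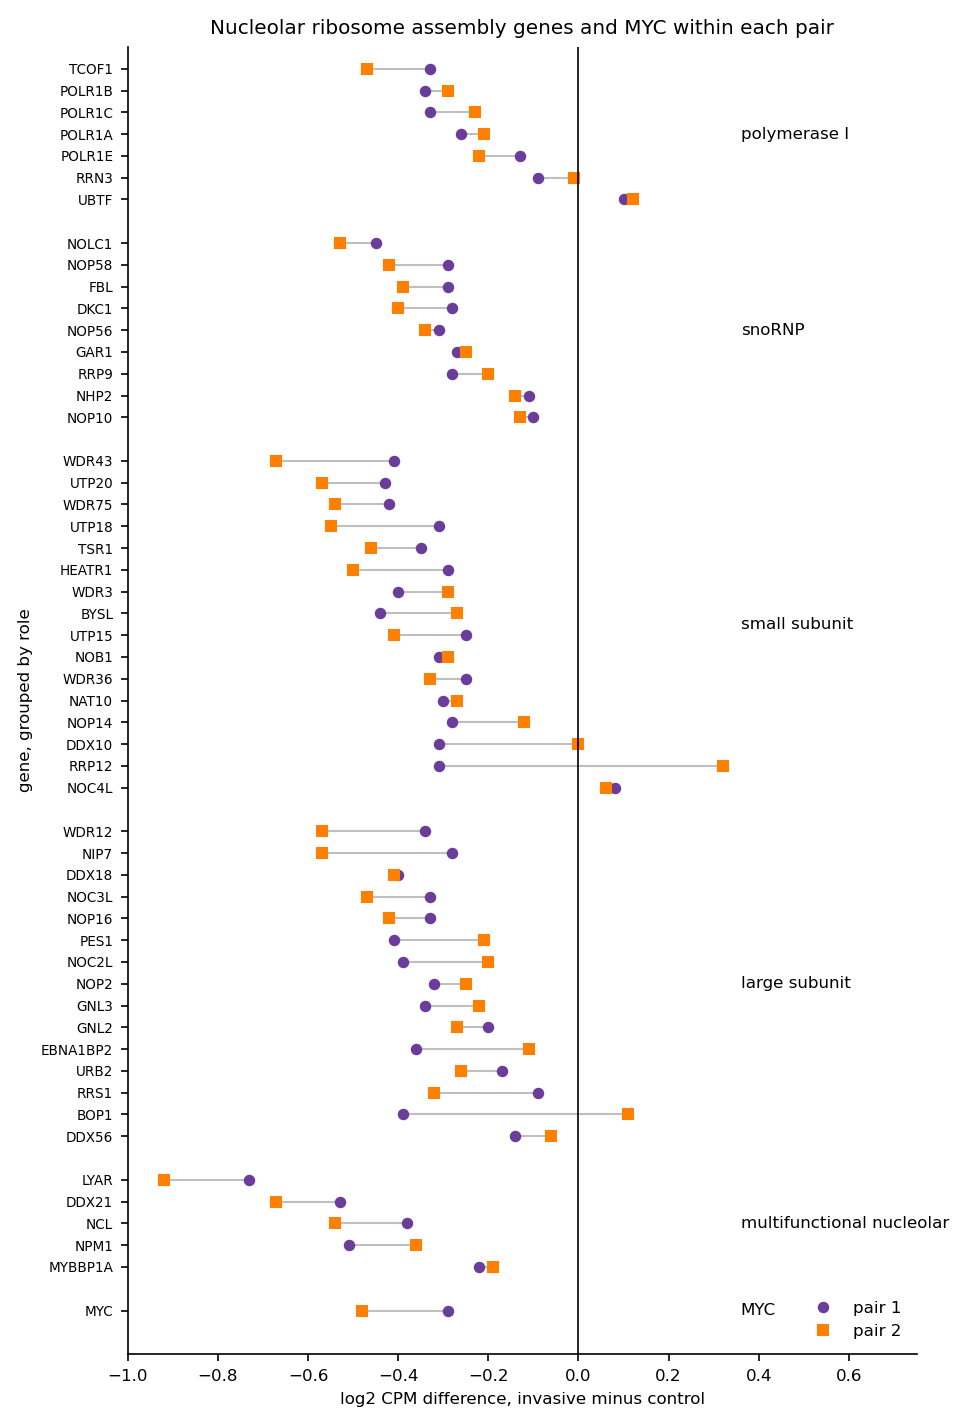
Each row is 1 of the 53 fitted genes, grouped by role and ordered by fitted fold change, and the x axis is the log2 CPM difference of invasive minus control within pair 1 (circles) and pair 2 (squares). Most symbols lie left of 0 in every group. UBTF and NOC4L lie right of it in both pairs, and RRP12 and BOP1 have one symbol on each side.

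The E-box CACGTG was looked for in the promoters of these genes because it is the sequence MYC binds. RefSeq promoter windows of GRCh38.p14, from 250 bases before to 50 bases after a transcription start, were available for 44 of the 54 genes. The motif, which reads the same on both strands, was present at a listed start of 20 of the 44 genes (45.5%). It was present in 12.6% of 9753 fitted genes, in 8.77% of all 27305 genes with such a window, and in 26.3% of 76 other ribosome assembly genes. Most of these sites were close to the start: from 50 bases before it to 50 after it, 43.2% of the 44 genes had the motif, against 5.25% of fitted genes. With bases before the start alone, the shares were 15.9% and 11.3%. A match is a description of the letters and does not show that MYC binds there.

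The sequences below show where the motif lies in genes of different roles, with the E-box in capitals and every sequence read 5′ to 3′ on the gene's own strand. UTP20, a large scaffold protein of the small-subunit processome, is shown with all 250 bases before its start (chr12:101279855-101280104, plus strand), because its motif begins 10 bases before that start.
UTP20: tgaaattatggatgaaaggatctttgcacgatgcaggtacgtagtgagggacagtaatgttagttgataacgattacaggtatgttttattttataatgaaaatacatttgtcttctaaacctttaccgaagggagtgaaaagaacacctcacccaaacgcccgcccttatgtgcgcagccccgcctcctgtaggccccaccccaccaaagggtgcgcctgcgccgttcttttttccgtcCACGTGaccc
The other sites are shown as the 30 bases around the motif. LYAR (chr4:4290068-4290097, minus strand) and DDX21 (chr10:68956604-68956633, plus strand) had the largest differences of the set. Each has 2 listed starts, and the motif lies before 1 of them and is not in the window of the other.
LYAR: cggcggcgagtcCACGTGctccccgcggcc
DDX21: ggccgggtgtccCACGTGgtccccggcgac
In WDR43 (chr2:28894658-28894687, plus strand), FBL (chr19:39846356-39846385, minus strand), PES1 (chr22:30591880-30591909, minus strand), NOC3L (chr10:94362903-94362932, minus strand) and GAR1 (chr4:109815781-109815810, plus strand) it lies just after a listed start. GAR1 has a further listed start, whose window does not hold it.
WDR43: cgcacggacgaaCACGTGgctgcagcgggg
FBL: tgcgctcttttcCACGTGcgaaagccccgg
PES1: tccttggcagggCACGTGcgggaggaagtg
NOC3L: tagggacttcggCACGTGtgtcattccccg
GAR1: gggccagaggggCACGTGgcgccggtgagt

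By role, the motif was found in 0 of 5 polymerase I genes, 4 of 7 snoRNP genes, 7 of 16 small-subunit genes, 6 of 11 large-subunit genes and 3 of 5 multifunctional genes. The median log2 fold change was −0.29 over 19 fitted genes of the set with the motif and −0.32 over 24 without it. Genes with and without it were all chosen for lower levels in this contrast. Their medians therefore cannot show whether the motif matters, and nothing is read from them. Over all fitted genes with a window the medians were −0.01 with the motif and −0.00 without it.

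**Figure D2:**
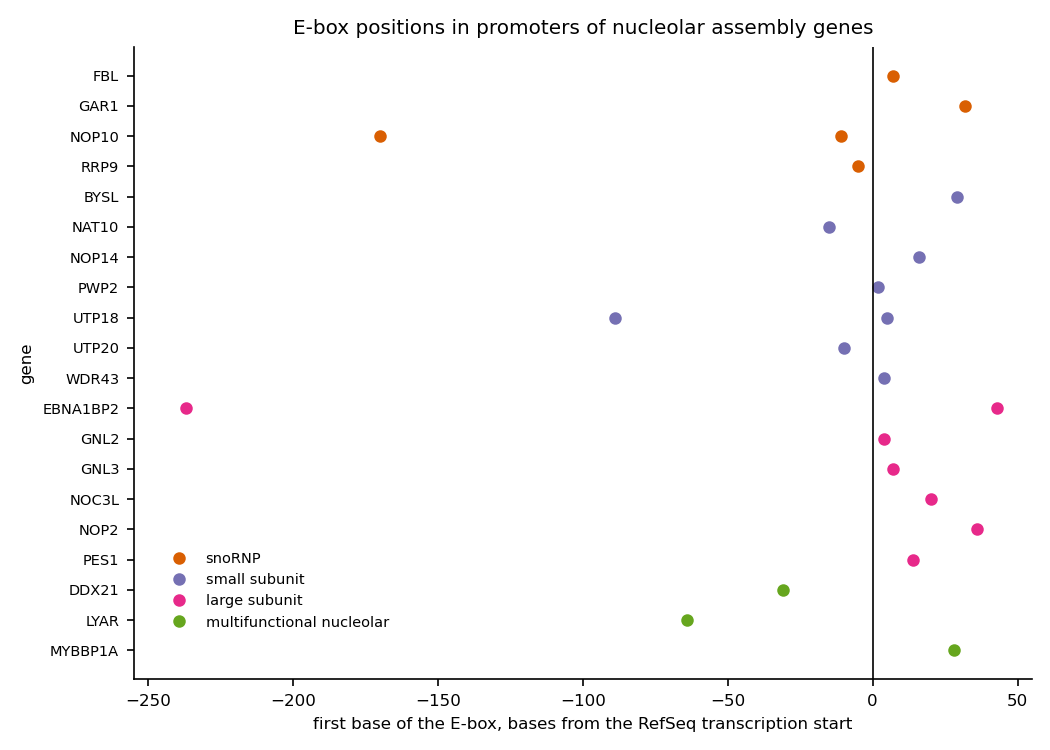
The x axis gives the first base of each CACGTG match, in bases from a RefSeq transcription start, for the 20 genes with a match, coloured by role. Most of the points lie between 50 bases before and 50 bases after the start.

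MYC had 71.0 and 72.4 CPM in invasive 1 and 2, against 85.0 and 101 CPM in control 1 and 2. Both invasive libraries were lower than both controls, and the invasive values lay closer together than the control values. The fitted log2 fold change was −0.39 ± 0.10 (SE), with differences of −0.29 in pair 1 and −0.48 in pair 2. MYC's relatives MYCN and MYCL had at most 5 counts in any library.

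Among polymerase I genes, which transcribe the ribosomal DNA, 6 of 7 were lower in both pairs and the median log2 fold change was −0.24. TCOF1, or treacle, which promotes that transcription, had 141 and 106 CPM in the invasive libraries, against 174 and 146 CPM in the controls. POLR1B, the second-largest subunit, had 42.2 and 38.2 CPM against 52.1 and 46.5 CPM. POLR1C, a subunit shared with polymerase III, had 16.9 and 17.2 CPM in the invasive libraries and 20.8 and 20.2 CPM in the controls. In these 3 genes the groups did not overlap, and the log2 fold changes were −0.40 ± 0.10, −0.31 ± 0.11 and −0.28 ± 0.14 (SE). They are the largest falls of a group chosen on this contrast. Over all fitted genes, 31.9% were lower in both pairs and 19.7% had both invasive libraries below both controls. TCOF1 was lower in both libraries of pair 2 than in their pair 1 counterparts, and its value was −0.61 without invasive 1 and −0.20 without invasive 2. POLR1A, the largest subunit, and POLR1E, another subunit, were at −0.24 and −0.18.

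RRN3 and UBTF, which act when polymerase I starts transcription, had the smallest differences of this group. RRN3, which brings the polymerase to the promoter, had 50 and 54.7 CPM in the invasive libraries, against 52.1 and 54.9 CPM in the controls, so the groups overlapped and the log2 fold change was −0.05 ± 0.10. UBTF, the factor that holds ribosomal DNA in its active form, had 144 and 111 CPM in the invasive libraries and 131 and 103 CPM in the controls. It was higher in the invasive library of both pairs, yet invasive 2 lay between the controls (0.11 ± 0.09). Its sign depended on single libraries: the value was −0.09 without invasive 1 and −0.08 without control 2, and 0.30 without control 1 and 0.27 without invasive 2. RRN3 shares stretches of near-identical sequence with CDR2 and with RRN3P copies, which could take some of its reads.

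All 9 snoRNP genes were lower in both pairs with no overlap between groups, and their median log2 fold change was −0.33. Of all fitted genes 31.9% were lower in both pairs, and 19.7% had both invasive libraries below both controls. NOLC1, a chaperone that shuttles snoRNPs, had 218 and 192 CPM in the invasive libraries, against 290 and 276 CPM in the controls. NOP58, a scaffold of the box C/D particles, had 94.9 and 92.3 CPM against 113 and 123 CPM. The log2 fold changes were −0.49 ± 0.10 and −0.36 ± 0.10 (SE).

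Core proteins of both classes of snoRNP are in the set. Of the box C/D core, which methylates ribosomal RNA, the methyltransferase FBL was at −0.34, NOP56 at −0.33 and NOP58 at −0.36. The fourth C/D core protein, NHP2L1, is outside the set and was at −0.15 ± 0.09, with 122 and 101 CPM in the invasive libraries and 133 and 112 CPM in the controls, which overlap. In the box H/ACA core, which converts uridine to pseudouridine, the enzyme DKC1 was at −0.34 ± 0.10, GAR1 at −0.26, and NHP2 and NOP10 at −0.12 each. DKC1 had 120 and 110 CPM in the invasive libraries, against 142 and 146 CPM in the controls. NOP10, the smallest of the core proteins, had 100 and 103 CPM in the invasive libraries and 105 and 112 CPM in the controls. The C/D core thus ran from −0.36 to −0.15 and the H/ACA core from −0.34 to −0.12. RRP9, which binds the U3 snoRNA that directs early cleavage, was at −0.24.

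**Figure D3:**
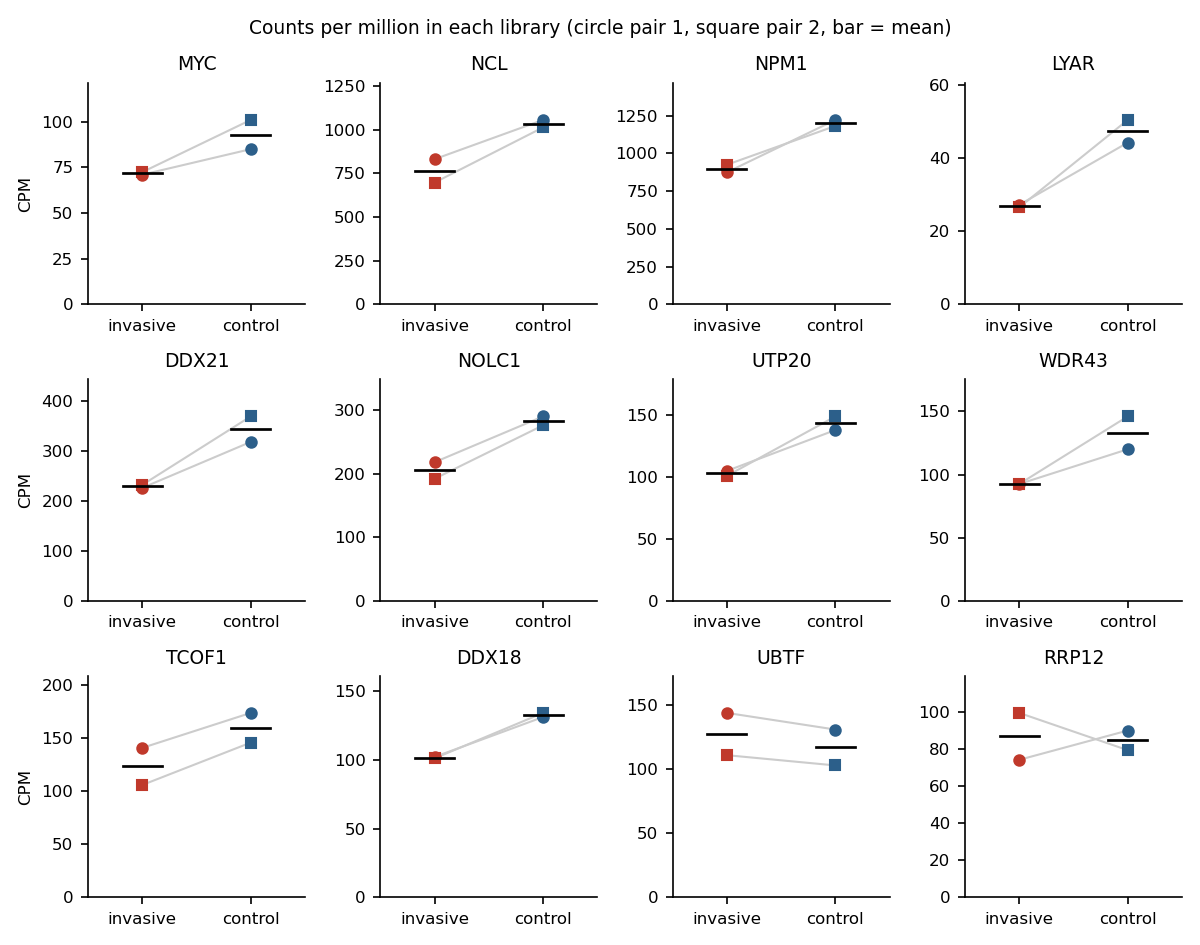
Each panel plots 1 gene in CPM on a linear axis that starts at 0, with the 2 invasive libraries left of the 2 controls. Circles are pair 1, squares are pair 2, grey lines join the libraries of a pair, and bars are group means. In MYC, NCL, NPM1, LYAR, DDX21, NOLC1, UTP20, WDR43, TCOF1 and DDX18 both invasive libraries are below both controls. In UBTF and RRP12 the groups overlap.

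Among small-subunit genes 13 of 16 fitted were lower in both pairs, and the median was −0.34, with a range from −0.54 to 0.07. Their lowest values were in the UTP and WD-repeat proteins that build the early processome. WDR43 had 92.5 and 92.5 CPM in the invasive libraries, against 120 and 146 CPM in the controls. UTP20 had 105 and 101 CPM against 138 and 149 CPM. WDR75 had 65.3 and 56.4 CPM in the invasive libraries and 85.3 and 81.8 CPM in the controls. None of the 3 overlapped between groups, and their log2 fold changes were −0.54 ± 0.11, −0.50 ± 0.10 and −0.48 ± 0.10 (SE). These 3 have the largest falls of genes chosen on this contrast. For comparison, 31.9% of all fitted genes were lower in both pairs, and 19.7% had both invasive libraries below both controls.

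A group of that protein class, made by hand, holds 8 fitted genes of the set. NOC4L (0.07), NOP14 (−0.20) and the snoRNP gene RRP9 (−0.24), which could also be placed in that class, were left out. The count and range of the group therefore depend on which genes were let in. All 8 (WDR43, UTP20, WDR75, UTP18, HEATR1, WDR3, UTP15 and WDR36) were lower in both pairs, as were 31.9% of all fitted genes. The 8 had a median of −0.41 and a range from −0.54 to −0.29. They were chosen on this contrast, and genes of the same class outside the set included smaller values, such as UTP14A at −0.26, UTP3 at −0.23, WDR46 at −0.15, TBL3 at −0.10 and UTP6 at −0.07. Other small-subunit factors of the set were in the same direction, with sizes that overlap those of the 8: TSR1, a late assembly factor, was at −0.40, BYSL at −0.35, the endonuclease NOB1, which makes the final cut at the end of 18S RNA, at −0.30, NAT10, which acetylates it, at −0.28, and NOP14 at −0.20.

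RRP12, DDX10 and NOC4L did not follow the rest of this group. RRP12, which is needed for export of pre-ribosomal particles, had 74.2 and 99.5 CPM in the invasive libraries, against 90.0 and 79.4 CPM in the controls. Its differences were −0.31 in pair 1 and 0.32 in pair 2, so the fitted value was 0.00 ± 0.16 (SE). The helicase DDX10 was at −0.31 in pair 1 and 0.00 in pair 2. NOC4L, a partner of NOP14, was at 0.08 and 0.06. PWP2, a processome scaffold, had only 6 and 4 counts in invasive 1 and 2 and 9 and 2 counts in control 1 and 2, and was not fitted. A transcript of the gene FP565260.1, 99.9% identical to PWP2 over 4564 bases, had 66 and 55 counts in the invasive libraries and 92 and 92 counts in the controls, so reads of PWP2 may be spread over both.

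Among large-subunit genes 14 of 15 were lower in both pairs, and the median was −0.29. WDR12, a member of the PeBoW complex that matures 28S and 5.8S RNA, had 58.9 and 53.1 CPM in the invasive libraries, against 72.6 and 78.6 CPM in the controls. NIP7 had 52.1 and 51.0 CPM against 61.8 and 75.4 CPM. The RNA helicase DDX18 had 102 and 101 CPM in the invasive libraries and 131 and 134 CPM in the controls. In these genes the groups did not overlap, and their log2 fold changes were −0.45 ± 0.11, −0.42 ± 0.11 and −0.41 ± 0.09 (SE). They too are the largest falls of a group chosen on this contrast. Among all fitted genes, 31.9% were lower in both pairs and 19.7% had both invasive libraries below both controls.

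The PeBoW partners differed from one another. PES1 was at −0.41 and −0.21 in pairs 1 and 2, with a fitted value of −0.31, while BOP1 had opposite signs, at −0.39 and 0.11. BOP1 had 75.6 and 72.5 CPM in the invasive libraries, against 96.9 and 67.2 CPM in the controls, so control 2 was lowest of the 4. DDX56, the other helicase with a small value, had 123 and 114 CPM in the invasive libraries and 132 and 118 CPM in the controls, which overlap (−0.10 ± 0.09).

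The other large-subunit genes were between these extremes. NOC3L was at −0.40, NOP16 at −0.37, NOC2L at −0.30, NOP2, a methyltransferase of 28S RNA, at −0.29, and the GTPases GNL3 and GNL2 at −0.28 and −0.24. EBNA1BP2 was at −0.24, URB2 at −0.22 and RRS1, which helps bring in the 5S particle, at −0.20.

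The multifunctional nucleolar proteins had the lowest median of the 5 groups, −0.46, with 5 of 5 lower in both pairs and no overlap between groups. Both invasive libraries lay below both controls in 19.7% of all fitted genes, and 31.9% were lower in both pairs. LYAR (chr4:4267701-4290169), a zinc-finger protein of the nucleolus, had 27.2 and 26.5 CPM in the invasive libraries, against 44.2 and 50.4 CPM in the controls. DDX21 (chr10:68956128-68985073), an RNA helicase that links polymerase I and II transcription to rRNA processing, had 226 and 232 CPM against 318 and 369 CPM. NCL, or nucleolin, had 832 and 698 CPM in the invasive libraries and 1057 and 1014 CPM in the controls. The log2 fold changes of these 3 genes were −0.83 ± 0.12, −0.60 ± 0.10 and −0.46 ± 0.11 (SE).

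MYBBP1A, a regulator of ribosomal DNA transcription, had the smallest difference of the group, with 77.7 and 71.9 CPM in the invasive libraries and 88.2 and 81.8 CPM in the controls (−0.20 ± 0.09). NPM1, or nucleophosmin, a chaperone of ribosome assembly, was at −0.44 ± 0.11. Levels per kilobase of exon allow genes to be compared, and on this scale NPM1 (235 CPM per kb in invasive and 314 in control populations), NOP10 (183 and 196) and NCL (110 and 149) were the most abundant of the set. DDX10 (2.63 and 2.89) was lowest among the fitted genes. NPM1 shares sequence with 11 other genes, most of them processed copies.

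Of the 54 genes, 17 have a stretch of at least 300 bases that is 95% or more identical to another gene's transcript, on either strand, which covers copies, pseudogenes and overlapping neighbours. No source used here gives the strand setting of the counting, so reads of overlapping genes cannot be told apart. Of the genes with no such stretch, 33 of 37 fitted were lower in both pairs (against 31.9% of all fitted genes), with a median of −0.31.

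Single genes depended on single libraries more than the medians did. With each library left out in turn, in fits without the pair, the fitted value of 4 of the 53 genes took both signs (BOP1, RRN3, RRP12 and UBTF). In 10 more (TCOF1, FBL, GAR1, NOP14, DDX10, NOC4L, NOP2, PES1, DDX56 and URB2) it kept its sign and moved by over 1.5 times. URB2, for example, ran from −0.45 without invasive 1 to −0.01 without invasive 2, and BOP1 from −0.42 without control 2 to 0.13 without control 1. The same held, with no change of sign, for 8 of the 18 genes with the largest fold changes in lists outside the set (TAF1D, RUVBL1, EXOSC8, SNHG1, SNHG15, MXD3, ODC1 and PTMA).

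The rest of the pathway was then measured in genes that are not in the set. These genes and the further lists below were chosen with earlier results of these data known, so they are not an independent check. A list of 97 other ribosome assembly genes (other polymerase I, snoRNP and modification, small-subunit and large-subunit factors) had a median log2 fold change of −0.23. In 77 of the 97 the invasive library was lower in both pairs (79.4%, against 31.9% of all genes), and in 6 it was higher in both. Both invasive libraries were below both controls in 62 (63.9%, against 19.7% of all genes). No gene of the 97 passed an adjusted p of 0.05 in edgeR's quasi-likelihood test. At an unadjusted p under 0.05 in that test, 38 were lower (39.2%, against 8.41% of all genes) and 0 higher. DESeq2 called 1, BRIX1, lower, as it did 0.236% of all genes to which it gave an adjusted p. The DESeq2 adjusted p of BRIX1 rounds to 0.05, so this call lies at the threshold.

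BRIX1, which assembles the large subunit, had 51.6 and 54.1 CPM in the invasive libraries, against 77.0 and 87.9 CPM in the controls. Its groups did not overlap, and its log2 fold change was −0.66 ± 0.10 with an edgeR adjusted p of 0.0751. MRTO4, another large-subunit factor, had 96.1 and 90.9 CPM against 134 and 129 CPM, with −0.51 ± 0.09 and an edgeR adjusted p of 0.0937. Medians of the 4 lists ran from −0.15 for the 13 snoRNP and modification factors to −0.27 for the 9 polymerase I factors, with −0.24 for 34 small-subunit and −0.21 for 41 large-subunit factors.

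Within those lists the largest log2 fold changes lay below 0. They were TTF1 (−0.34), which ends polymerase I transcription, and TAF1D (−0.32), a subunit of its promoter factor, the methyltransferase EMG1 (−0.47) and the snoRNP assembly ATPase RUVBL1 (−0.40), and the small-subunit factors LTV1 and ESF1 (−0.54 each). None of these 6 passed in edgeR, with adjusted p-values from 0.127 to 0.229.

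**Figure D4:**
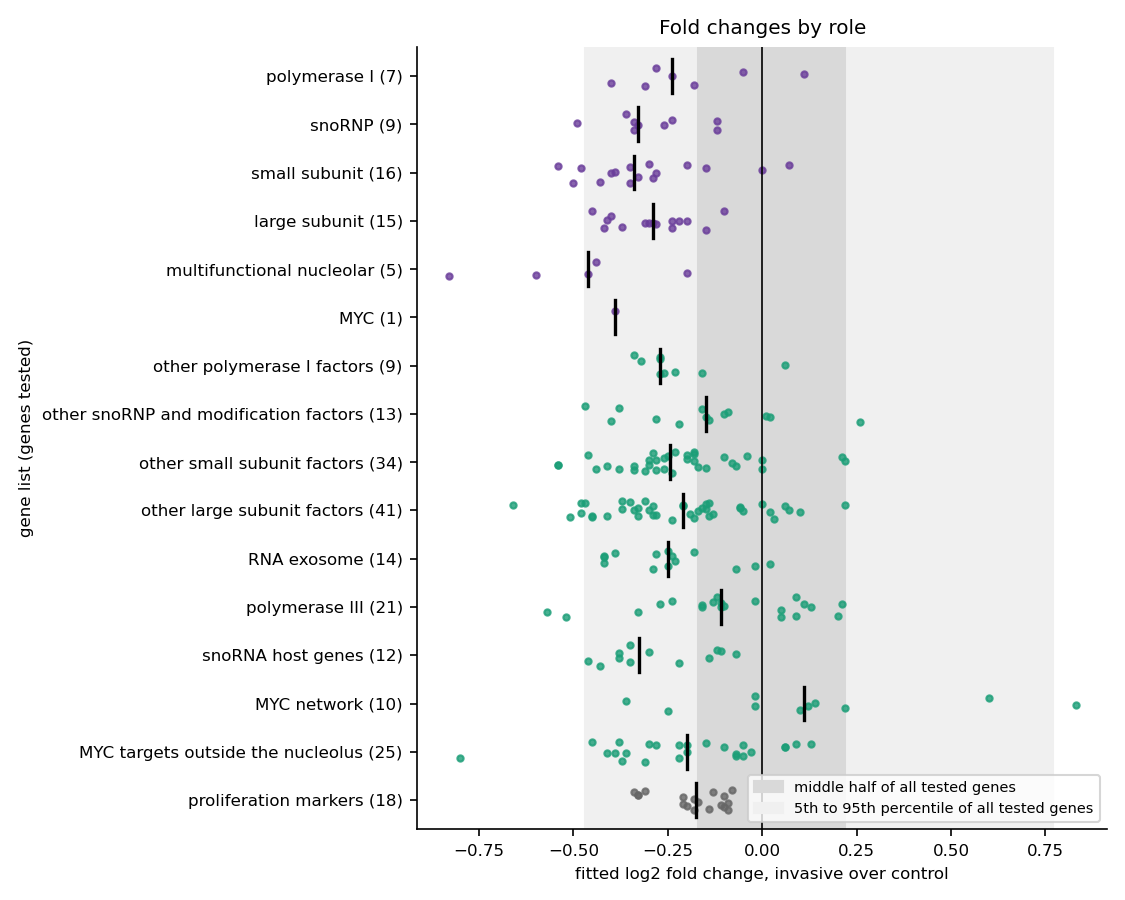
The x axis is the fitted log2 fold change, invasive over control, and each row is a list with its number of fitted genes, 1 point per gene and a black bar at the median. The dark band holds the middle 50% of all fitted genes (−0.17 to 0.22) and the light band the 5th to 95th percentile (−0.47 to 0.77). Purple rows are the set chosen on this contrast, green rows are genes outside it, and grey is the proliferation list.

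Genes that carry snoRNAs in their introns were also mostly lower. Of 12 snoRNA host genes 10 were lower in both pairs (83.3%, against 31.9% of all genes), with a median of −0.32. At an unadjusted p under 0.05 in edgeR's test, 6 were lower (50%, against 8.41% of all genes) and 0 higher. None passed an adjusted p of 0.05 in edgeR's test or in DESeq2. SNHG1 had 114 and 145 CPM in the invasive libraries, against 151 and 193 CPM in the controls (−0.43 ± 0.09). Invasive 2, at 145 CPM, came near control 1, at 151 CPM, and the libraries of pair 2 were the higher of each group. SNHG15 was at −0.46 ± 0.16.

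The partners and antagonists of MYC were mixed in direction. The median of 10 fitted genes of the MYC network was 0.11. In both pairs 2 were lower and 5 higher, against 31.9% and 33.4% of all fitted genes. MXD4, a MAX partner that represses MYC targets, had 50.4 and 60.4 CPM in the invasive libraries, against 29.6 and 31.9 CPM in the controls. Its log2 fold change was 0.83 ± 0.11 with an edgeR adjusted p of 0.0626, above the threshold. The related MXD3 had 28.7 and 19.6 CPM against 17.3 and 13.9 CPM, with 0.60 ± 0.14 and an edgeR adjusted p of 0.128. MXI1, also related, went the other way, with 11.2 and 12.7 CPM against 13.7 and 16.9 CPM (−0.36 ± 0.16). MXD1 was at −0.02 ± 0.16. MAX itself had 65.2 and 67.4 CPM in the invasive libraries and 59.0 and 59.5 CPM in the controls. No gene of the network passed edgeR's test. At an unadjusted p under 0.05 in that test, 2 were higher (20%, against 9.82% of all fitted genes) and 1 lower (10%, against 8.41%). DESeq2 called 1, MXD4, higher, as it did 1.15% of all genes to which it gave an adjusted p.

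Known MYC targets that work outside the nucleolus had a median of −0.20 over 25 fitted genes. In both pairs 16 of them were lower (64%, against 31.9% of all genes) and 1 higher. ODC1, the first enzyme of polyamine synthesis, had 170 and 252 CPM in the invasive libraries, against 365 and 349 CPM in the controls (−0.80 ± 0.17, edgeR adjusted p 0.129). PTMA, or prothymosin alpha, had 381 and 302 CPM against 507 and 413 CPM (−0.45 ± 0.10, edgeR adjusted p 0.119). None of the 25 passed in edgeR, 9 were lower (36%, against 8.41% of all genes) and 0 higher at an unadjusted p under 0.05, and DESeq2 called ODC1.

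Proliferation markers were measured beside these genes. The median of 18 markers was −0.18, at −0.10 in pair 1 and −0.27 in pair 2. Their summed level was 4799 and 3681 CPM in invasive 1 and 2, against 4959 and 4376 CPM in control 1 and 2. These sums overlapped between the groups. In both pairs 14 of the 18 markers were lower (77.8%, against 31.9% of all fitted genes) and 0 higher. Both invasive libraries were below both controls in 5 of them (27.8%, against 19.7% of all fitted genes). The edgeR test had 4 lower (22.2%, against 8.41% of all fitted genes) and 0 higher at an unadjusted p under 0.05. The median difference within a group was −0.43 between the invasive libraries and −0.19 between the controls, library 2 minus library 1. The genes of the set were at −0.06 in both of those comparisons and at −0.31 and −0.29 in pairs 1 and 2, the contrast on which they were chosen. The 97 other assembly genes were at −0.02 between the invasive libraries and 0.01 between the controls. In pairs 1 and 2 those 97 were at −0.23 and −0.24. The part of proliferation in the lower levels of the assembly genes was not tested.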

How the data were processed

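Raw read counts per Ensembl gene were deposited by the authors, 1 file per library, per the file headers. The submitters' processing notes name the build GRCh38 and, as tools, HTSeq, DESeq2, Bowtie, TopHat2 2.0.12 and bcl2fastq 1.8.4. A second file per library holds a normalized score, rounded to whole numbers by the authors, per the file headers. The method is not stated, and the score served as an alternative. Totals and the 3-count limit of a zero (0.168 to 0.217 CPM) cover counting error only.

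Genes listed in all 4 libraries and passing filterByExpr (minimum count 10, total 15) were fitted, 14231 in all. edgeR 4.0.16 (limma 3.58.1, R 4.3.3) used TMM factors, the pair as a block, robust quasi-likelihood F tests (two-sided) and Benjamini-Hochberg adjustment over all fitted genes. The series' design text says that each pair was analysed together. As a check, the differences between the libraries of a group correlated across genes between control and invasive (r = 0.283). Differences within a pair are log2 CPM with TMM factors and a prior count of 2. Fitting was tested on simulated data with log2 fold changes of 1 and 2 in size and no pair effect. Changes as small as those of the set were not simulated, so this says nothing of how well they are called.

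The genes and lists were chosen with earlier results of these data known. Values per library are given for MYC and, in each role group, for the 3 genes with the largest fitted fold change among those of 1 sign in both pairs and the 1 with the smallest, and genes with opposite signs are named. Of each other list, where no gene passed, the 2 with the largest fold change are named. Further genes, among them MYCN, MYCL, MAX, NHP2L1 and UTP genes outside the set, were named after their values were seen. Near-identical transcripts were found with BLAST+ 2.17.0 in GENCODE 29, whose exon lengths gave CPM per kb. Alternatives were DESeq2 1.42.0, other size factors, no filter, no block, leaving out each library, the authors' scores, another prior count and genes with no near-identical transcript. The last was chosen after seeing the data, as was the other prior count for differences within a group.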

Additional observations from a re-analysis of the deposited data

How the results depend on the processing

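With 2 libraries a group and 1 residual degree of freedom, counts of calls depended on the settings. Across the fits 49 to 52 of the 53 genes of the set were below 0, a direction on which they were chosen, and 81 to 87 of the 97 other assembly genes. The median of the set was −0.33 with no filter on low counts and −0.29 with the authors' normalized values, and −0.36 to −0.25 leaving out each library in turn. For the 97 other assembly genes it was −0.26 with no filter and −0.26 to −0.22 leaving out each library. Past the adjusted threshold were 1 of the 97 with DESeq2's size factors in edgeR, 1 with DESeq2 and 24 with no filter, all lower, and 0 leaving out each library. Over all genes 39 passed, against 89 with DESeq2's size factors, 171 with DESeq2, 1453 with no filter and 2 with no replicate block. Leaving out a library gave 3 (without control 2), 8 (without invasive 2), 25 (without invasive 1) and 116 (without control 1), where the lone sample of a group is assumed to vary like the other group. The cause of these shifts was not tested. Without the replicate block the medians were −0.31 for the set and −0.23 for the 97, and it changed no other call. In 1 gene of the set (LYAR) an adjusted p under 0.05 came with DESeq2's size factors, in 2 with DESeq2 (LYAR and DDX21) and in 24 with no filter. Over all genes 9 of 14231 passed on the lower side with DESeq2's size factors and 29 of 12299 (0.236%) with DESeq2. With no filter 693 did, in a fit that covers more genes and has a median of 0.04 over all of them. Nothing is read from the counts of the set, which was chosen on this contrast. The share of all genes that passed with no filter is not given, so nothing is read from the 24 of the 97 either. MXD4 passed with DESeq2's size factors (adjusted p 0.0362), with DESeq2 (0.0171) and with no filter (2.91e-08). BRIX1 had 0.0494, 0.05 and 2.38e-07 in the same 3. The share of promoters with the E-box was 15.9% when bases after the start were left out.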

Other observations

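Polymerase III, which makes 5S RNA and transfer RNA, and the RNA exosome, which trims ribosomal precursors, gave values of their own. Of 21 polymerase III genes 11 were lower in both pairs (52.4%, against 31.9% of all fitted genes) and 5 higher, and the median log2 fold change was −0.11. POLR3G, a subunit of the polymerase, had 27.3 and 26.0 CPM in the invasive libraries, against 39.5 and 38.4 CPM in the controls (−0.57 ± 0.11, edgeR adjusted p 0.103), while POLR3F, another subunit, was at −0.52 ± 0.18. None of the 21 passed in edgeR or DESeq2, and 3 were lower (14.3%, against 8.41% of all fitted genes) and 0 higher at an unadjusted p under 0.05.

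Of 14 exosome genes 11 were lower in both pairs (78.6%, against 31.9% of all fitted genes) and 1 higher, with a median of −0.25. EXOSC8, a subunit of the exosome ring, had 48.0 and 38.4 CPM in the invasive libraries, against 58.6 and 55.1 CPM in the controls (−0.42 ± 0.11), and its cofactor C1D had 16.3 and 17.3 CPM against 21.5 and 22.9 CPM (−0.42 ± 0.13). None of the 14 passed in edgeR or DESeq2. At an unadjusted p under 0.05 in edgeR's test, 6 were lower (42.9%, against 8.41% of all fitted genes) and 0 higher. The 13 mitochondrially encoded genes had a median of 0.09, with 0 lower and 6 higher in both pairs, against 31.9% and 33.4% of all fitted genes.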
